A study of Homo sapiens with 24 samples.

Results

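Loss of messenger RNA was followed over 8 h in QKI-targeted U2OS cells, a human osteosarcoma line. The 6 libraries that describe it, 2 each at 0, 4 and 8 h, were taken by their labels from 24 libraries in the series, and all 12547 endogenous rows of the table were kept. The cells carried a guide against QKI together with an empty vector (sgQKI+EV). The treatment was actinomycin D at 5 µg/mL, which blocks transcription, given with sodium arsenite at 200 µM, an oxidative stressor. The 0 h libraries carry the same treatment label with a time of 0 h. Both agents were present together at 4 and 8 h, so the parts of the transcription block and of the stress cannot be told apart. The other 18 libraries followed the same times in sgNS+EV cells, which had a control guide with the same vector, and in QKI-targeted cells given back QKI7 whole (QKI7-WT) or with its KH domain removed (QKI7-△KH). Whether a genotype was 1 clone or a pool, and whether replicates were separate cultures, was not given in the sources used here, so p-values measure only the spread between these libraries.

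When new transcription stops, the amount of an mRNA that remains depends on how quickly it is broken down. Most mRNAs are lost after removal of the poly(A) tail and the cap, followed by digestion from both ends, and sequence elements in the 3′ untranslated region (UTR) can speed this up. Transcription factors and feedback inhibitors are known for short-lived mRNAs, and ribosomal protein mRNAs for long-lived ones. QKI is an RNA-binding protein of the STAR family whose KH domain contacts RNA with the core sequence ACUAA. Arsenite triggers stress granules, which gather untranslated mRNAs.

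QKI, the targeted gene (GRCh38, chromosome 6, 163414000 to 163578596, plus strand), had signals of 36.0 and 32.7 at 0 h, 15.3 and 17.1 at 4 h and 10.6 and 11.7 at 8 h in sgQKI+EV. At 0 h the sgNS+EV libraries had 60.0 and 48.2, and the difference of -0.63 log2 (SE 0.14) passed, with a limma adjusted p of 0.0264. The groups did not overlap, and the library values lay in the direction of the label, although mRNA level need not follow protein loss after an edit. QKI mRNA itself fell in sgQKI+EV by 1.54 on the log2 scale over 8 h (SE 0.14, adjusted p = 2.12e-09), a half-life of 4.93 h.

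The values are a signal scaled to ERCC spike-in RNAs, with no read counts, so depth is unknown and precision rests on the replicates. In such bulk samples, fewer cells and less RNA per cell cannot be told apart. In sgQKI+EV the signal outside ribosomal RNA rows averaged 1014400 at 0 h, 88.8% of that at 4 h and 66.8% at 8 h. Ribosomal RNA rows held 8.22% and 3.55% of the signal at 0 h, and from 3.32% to 3.58% afterwards. Of the fixed markers, 8 of 12 mesenchymal genes were measured, with summed signals from 3639 to 5640 per library, mostly VIM. Measured epithelial genes were 4 of 6, with sums from 713 to 1229, mostly KRT8 and KRT18. None of 6 blood markers and 1 of 4 hepatocyte markers had a row, SERPINA1, with 143 to 201 per library.

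Over 8 h the cells lost most of their transcripts by a moderate amount and a small set almost entirely. Of 12547 genes, 11351 fell (90.5% of those tested) and 53 rose (0.422%), by limma at a Benjamini-Hochberg adjusted p under 0.05. Changes are differences of log2(signal + 1). The median change was -0.82 log2, a fold of 0.567, and 5% to 95% of genes lay between -1.81 and -0.16. A fall of at least 2-fold was called for 4457 genes, of at least 4-fold for 405 and of at least 8-fold for 48. All 48 of the last group were protein-coding, as were 92.3% of all genes. At 4 h, 8007 genes had fallen (63.8%) and 111 had risen (0.885%), with a median of -0.39. From 4 to 8 h, 9938 fell (79.2%) and 18 rose (0.143%), with a median of -0.44.

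**Figure D1:**
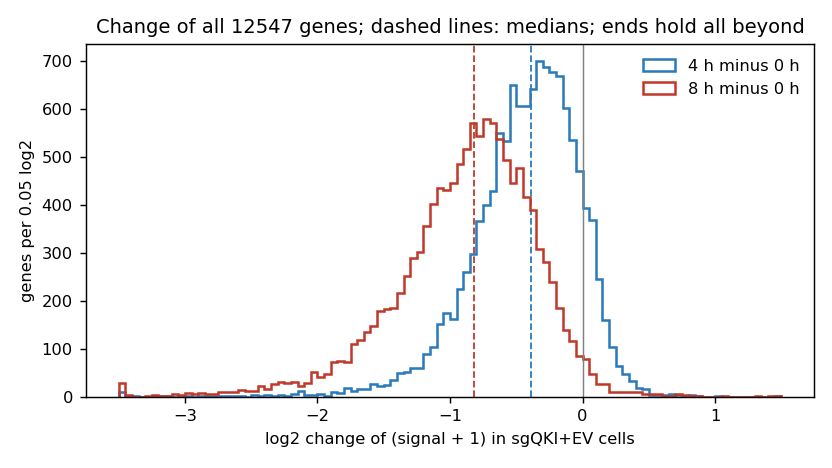
Number of genes (vertical axis) by log2 change of signal + 1 (horizontal axis) in sgQKI+EV cells, at 4 h in blue and 8 h in red, each against 0 h. The dashed medians lie at -0.39 and -0.82, and the 8 h curve has a long left tail, whose first bin holds all values beyond it.

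The call of a fall rests on the spike-in scale. When each library was scaled to the same total signal, the median 8 h change moved to -0.26, with 6579 genes lower and 1562 higher, and quantile normalisation moved it to 0.06, with 3743 lower and 4531 higher. Gene groups are therefore set against the all-gene median of the same scale below, and those whose side changed are named. Counts of members that fell or rose over 8 h are to be read beside the shares of all genes, 90.5% and 0.422% on the spike-in scale. For 9386 genes with a mean of at least 10 at 0 h, the half-life from group means over 8 h had a median of 8.87 h. It was under 2 h for 28 genes, 2 to 4 h for 515, 4 to 8 h for 3472, 8 to 16 h for 3552 and longer for 1719, and 100 genes did not fall. At 8 h, 61 of these genes had a mean under 2, close to the lowest value of any gene in a library (0.641 to 1.35), so their half-lives are less certain.

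The fastest losses were in regulators of transcription and of growth factor signalling. All 16 measured genes of the ID and TGF-β/BMP feedback list fell over 8 h (90.5% of all genes did), with a median of -2.31. ID proteins are dimerisation inhibitors of basic helix-loop-helix transcription factors. ID1 (chromosome 20, 31605283 to 31606515, plus strand) had 1081 in both 0 h libraries, 48.7 and 42.6 at 4 h, and 24.1 and 21.9 at 8 h. Its change of -5.50 (SE 0.12, limma adjusted p = 4.61e-19) was the lowest of the genes named here, with no overlap between times. ID2 left 2.36% of its 0 h mean, and ID3 left 11.7%. SMAD7, an inhibitor of TGF-β receptors, fell from 21.6 and 20.2 to 1.44 and 1.18.

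Immediate-early transcription factors, genes that growth factors switch on without new protein synthesis, had a median of -2.33, and 22 of 22 fell. IER5 had 78.9 and 74.1 at 0 h, 5.74 and 6.12 at 4 h, and 2.33 and 2.42 at 8 h (-4.52, SE 0.11, adjusted p = 1.07e-18). IER3 changed by -4.52 and EGR1, a zinc finger activator, by -3.98. EGR1 fell from 37.6 and 35.6 to 2.10 and 1.92 by 4 h, so most of its loss came early. JUNB, a subunit of AP-1, changed by -2.96. SRF, the factor that switches many of these genes on, was the slowest of the list at -1.05, and its fall did not pass under quantile normalisation.

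NFKBIA, which encodes the inhibitor IκBα that holds NF-κB in the cytoplasm, had 89.7 and 80.3 at 0 h, 2.95 and 3.99 at 4 h, and 1.72 and 1.63 at 8 h (-5.00, SE 0.15, adjusted p = 6.43e-17). The list as a whole was nearer the background, with 16 of 16 lower and a median of -1.19. Of the feedback inhibitors of MAP kinase and receptor tyrosine kinase signalling, 10 of 10 fell, with a median of -1.90. SPRED2, which restrains Ras signalling, changed by -3.02 and DUSP10, a phosphatase of stress kinases, by -2.90.

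The targets of YAP and TAZ, the transcription coactivators of the Hippo pathway, included several of the shortest-lived mRNAs. All 22 fell, with a median of -1.59. CYR61, a matricellular protein (chromosome 1, 85580761 to 85583962, plus strand), had 236 and 229 at 0 h, 5.29 and 5.76 at 4 h, and 4.54 and 4.18 at 8 h. CTGF, its relative (chromosome 6, 131948176 to 131951373, minus strand), had 225 and 219, then 41.5 and 35.9, then 4.65 and 4.17. The 2 genes ended at a like share of their 0 h mean, 1.87% and 1.98%, by different paths: CYR61 was at 2.37% by 4 h and CTGF at 17.4%. ANKRD1, a muscle ankyrin repeat protein, had 662 and 643 at 0 h, 214 and 187 at 4 h, and 38.7 and 35.6 at 8 h, with changes of -1.70 in the first interval and -2.40 in the second. AMOTL2, an angiomotin that binds YAP, changed by -2.21 and FJX1, a secreted growth regulator, by -3.58.

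In the list of HES, SOX, KLF and related factors 24 of 24 fell, with a median of -1.71, among them KLF5 at -3.01, HES1, a Notch target, at -2.54 and SOX9 at -2.50. In Wnt, Notch and Hedgehog feedback 18 of 19 fell, with a median of -1.48. AXIN2, the scaffold that limits β-catenin, changed by -3.06 and PTCH1, the Hedgehog receptor, by -2.90. Chromatin enzymes and remodellers, 53 of 53 lower with a median of -1.48, included ARID5B at -3.02 and ARID1A, a subunit of the SWI/SNF remodeller, at -2.39. Of 380 genes named ZNF, 368 fell and 1 rose, with a median of -1.06, which turned to just above the all-gene median with a constant of 10 in place of 1. ZNF217, an oncogenic zinc finger factor, changed by -2.76.

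Genes of survival, growth arrest and the cell cycle spanned a wide range. Short-lived survival and cell cycle regulators fell in 26 of 26 cases, with a median of -1.67. CDKN1B, the inhibitor p27 of cyclin-dependent kinases, had 58.5 and 51.5 at 0 h, 4.30 and 4.57 at 4 h, and 2.56 and 2.49 at 8 h (-3.99, SE 0.14). BCL6, a transcriptional repressor, changed by -3.54, PLK2, a polo-like kinase, by -2.59, and PIM3, a survival kinase, by -1.87. Among p53 targets 26 of 28 fell, with a median of -1.13, including the antiproliferative gene BTG2 at -2.99 and the BH3-only gene BBC3 at -2.88. Mitotic genes fell in 41 of 41 cases with a median of -1.21. FBXO5, an inhibitor of the anaphase-promoting complex, led them at -3.65, from 73.0 and 68.8 to 4.88 and 4.56, and CENPF, a kinetochore protein, changed by -1.81. DNA replication genes, 47 of 47 lower, lay at the all-gene median with -0.84, a shade above it on library totals.

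Several of the 15 lowest genes belong to no signalling list. RPL22L1, a paralogue of a ribosomal protein, had 134 and 125 at 0 h, 10.6 and 9.85 at 4 h, and 3.69 and 3.07 at 8 h (-4.90, SE 0.10, adjusted p = 9.95e-20). The cytosolic ribosomal proteins themselves stood at the other end of the range. AMD1, which makes the aminopropyl donor for polyamine synthesis, changed by -3.99, and SERTAD3, a transcriptional coregulator, by -4.34. CCDC12, a splicing-associated protein, kept 27.9% at 4 h and 4.37% at 8 h, and lost more by value in the second interval (-2.40) than in the first (-1.80).

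**Figure D2:**
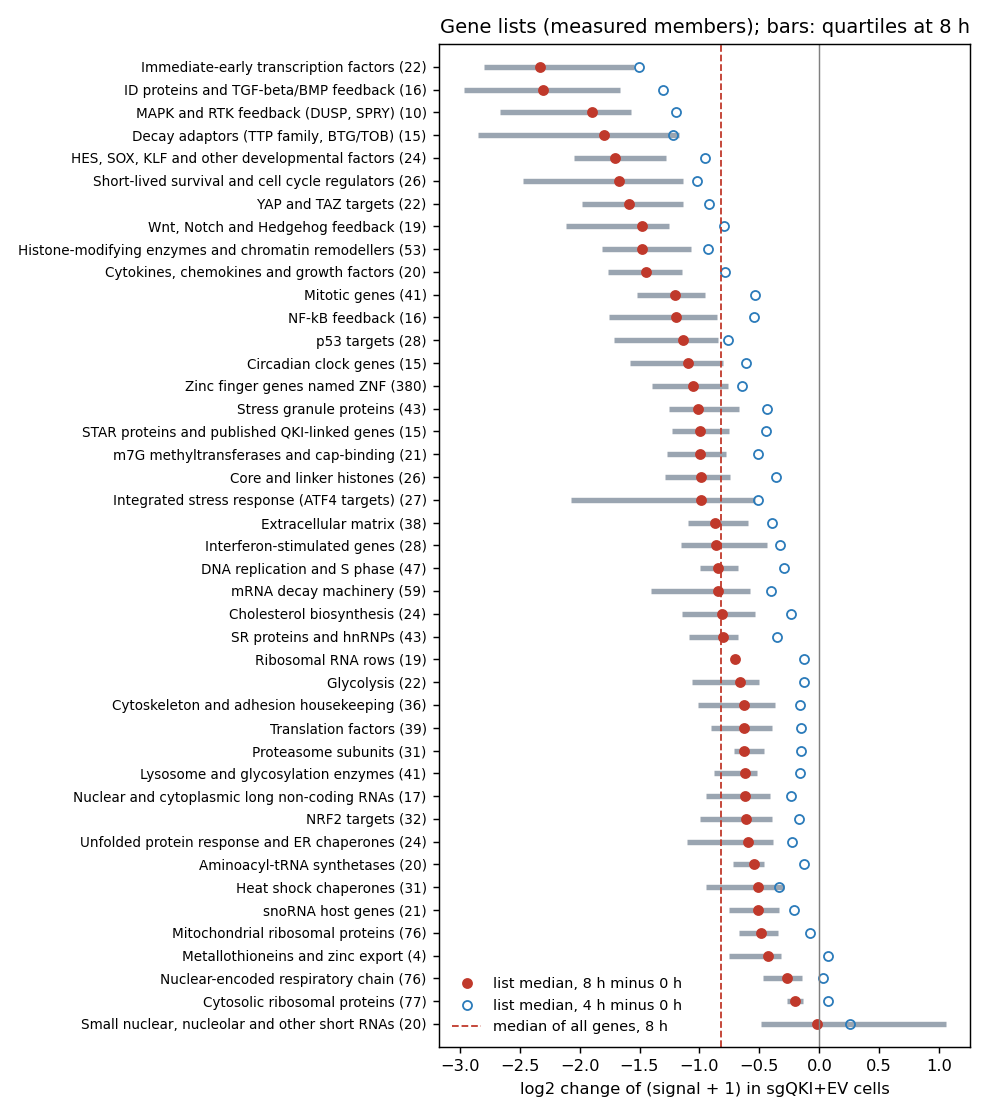
Median log2 change of signal + 1 (horizontal axis) for each of 43 gene lists (vertical axis, measured members in brackets): red points at 8 h and open blue circles at 4 h, both against 0 h, with grey bars for the quartiles at 8 h. Immediate-early factors lie lowest at -2.33, cytosolic ribosomal proteins lie at -0.21, and the dashed line is the all-gene median of -0.82.

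All 43 list medians were below 0 on the spike-in scale, 34 on library totals, 35 on totals without ribosomal RNA rows and 24 after quantile normalisation. Against the all-gene median, 24 lists were lower, and 33 of 43 kept their side under all 4 scales. The lists that changed side were interferon-stimulated genes, DNA replication, the mRNA decay machinery, cholesterol biosynthesis, SR proteins and hnRNPs, glycolysis, cytoskeleton, translation factors, proteasome and the unfolded protein response.

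Stress-response genes differed widely among themselves. Of 27 targets of ATF4 in the integrated stress response, 25 fell and 1 rose, with a median of -0.98, which turned to 0.04 after quantile normalisation. DDIT4, an inhibitor of mTORC1, had 118 and 109 at 0 h, 5.78 and 4.79 at 4 h, and 5.44 and 4.61 at 8 h, so it was near its 8 h level by 4 h, and the change from 4 to 8 h (-0.06) did not pass. SLC38A2, an amino acid transporter, changed by -3.59 and PPP1R15A, which reverses eIF2α phosphorylation, by -2.69. NUPR1, a stress-induced chromatin protein, was the member that rose, from 87.6 and 95.4 to 128 and 118.

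Heat shock chaperones fell in 24 of 31 cases, with a median of -0.51, and their median was above 0 on library totals and after quantile normalisation. DNAJB1, the HSP40 partner of HSP70, changed by -2.49. HSPA1A, the inducible HSP70, had 346 in both 0 h libraries, 221 and 180.3 at 4 h, and 283 and 274 at 8 h. It therefore fell by 0.79 on the log2 scale to 4 h and rose by 0.48 from 4 to 8 h (limma adjusted p = 7.25e-05). Its net 8 h change of -0.31 turned positive on library totals and after quantile normalisation. HSPB1, a small heat shock protein, had 1490 and 1447 at 0 h and 1495 and 1443 at 8 h.

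In the unfolded protein response list 21 of 24 fell, with a median of -0.60. HSPA5, the endoplasmic reticulum chaperone BiP (chromosome 9, 125234853 to 125241330, minus strand), had 349 and 354 at 0 h, 160.0 and 141 at 4 h, and 55.7 and 53.8 at 8 h (-2.66, SE 0.07, adjusted p = 1.13e-17). HERPUD1, of the degradation pathway of the same compartment, changed by -2.36. Targets of NRF2, the antioxidant factor, fell in 29 of 32 cases with a median of -0.61, above the all-gene median except with a constant of 10. TXNRD1, thioredoxin reductase, changed by -1.53. Of the 43 measured stress granule proteins 42 fell, with a median of -1.01. PUM2, a translational repressor that binds 3′ UTRs, changed by -2.88. G3BP1, a core scaffold of the granules, had 363 and 357, then 268 and 245, then 179.6 and 176 (-1.01, SE 0.07).

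The factors that destroy mRNA were themselves lost at unequal rates. Adaptors that recruit deadenylases, such as the TTP family and the BTG and TOB proteins, fell in 15 of 15 cases, with a median of -1.79. PNRC1, a partner of the decapping complex, had 51.0 and 47.0 at 0 h, 3.26 and 2.61 at 4 h, and 1.64 and 1.61 at 8 h (-4.25, SE 0.15). Its relative PNRC2 changed by -2.95 and TOB1 by -2.92. The decay machinery proper, with the deadenylases, decapping enzymes, exosome and nucleases, fell in 58 of 59 cases with a median of -0.84, at the all-gene median. DDX6, a helicase of processing bodies, was an exception at -2.60, from 68.9 and 64.6 to 10.1 and 10.2.

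Among genes tied to QKI and to 7-methylguanosine (m7G), the mark studied with QKI7, losses were near the background. All 15 measured STAR proteins and QKI-linked genes fell, with a median of -0.999, CDKN1B being the furthest, CCND1, cyclin D1, at -1.35 and MAP1B, a microtubule-associated protein, at -1.25. Of 21 m7G methyltransferases and cap-binding factors 19 fell, with a median of -0.996, and EIF4E, the cap-binding translation factor, at -1.86. METTL1, the m7G methyltransferase of tRNA and internal mRNA sites (chromosome 12, 57768471 to 57772793, minus strand), had 21.9 and 21.2 at 0 h, 20.8 and 20.05 at 4 h, and 11.7 and 9.78 at 8 h. Nearly all of its change of -0.95 (SE 0.13, adjusted p = 9.29e-07) came after 4 h. WDR4, its partner, had 22.1 and 20.3, then 14.97 and 12.9, then 10.0 and 10.5. By value it lost more in the first interval (-0.57) than in the second (-0.40, not passed without the first 4 h library). The second change minus the first, 0.17, did not pass, and it ranged from -0.028 to 0.38 with 1 sgQKI+EV library left out. After quantile normalisation the 8 h changes of METTL1 and WDR4 were near 0 and did not pass.

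Extracellular matrix genes fell in 38 of 38 cases with a median of -0.87. COL1A1, type I collagen, went from 444 and 442 to 117 and 109, and THBS1, thrombospondin, changed by -2.30. COL5A1, type V collagen, had 97.1 and 98.7 at 0 h, 38.8 and 33.6 at 4 h, and 33.5 and 32.9 at 8 h. Interferon-stimulated genes fell in 28 of 28 cases, with a median of -0.86 that lay above the all-gene median after quantile normalisation and with a constant of 10. The antiviral genes IFIT2 and IFIT3 changed by -3.65 and -2.87. Cytokines, chemokines and growth factors fell in 20 of 20 cases, with a median of -1.44, including GDF15, a stress cytokine, at -2.65, TNFSF9, the ligand of 4-1BB, at -3.53, and BMP4 at -1.61. In cholesterol synthesis 22 of 24 fell, with a median of -0.81 that crossed the all-gene median after quantile normalisation.

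Housekeeping groups lost less than the median gene. Proteasome subunits fell in 31 of 31 cases but within a narrow range, from -0.98 to -0.36, with PSMD11 at the low end. Translation factors, with 39 of 39 lower, and glycolysis, with 22 of 22 lower, had medians of -0.63 and -0.66. All 3 medians lay above the all-gene median, except after quantile normalisation and with a constant of 10. Within glycolysis, GAPDH had 12608 and 12051 at 0 h, 13198 and 11848 at 4 h, and 9493 and 9112 at 8 h (-0.41, SE 0.11), a sign that turned on library totals and after quantile normalisation. LDHA, lactate dehydrogenase, had 1382 and 1318, then 871 and 825, then 337 and 320.4 (-2.03, SE 0.08), and SLC2A1, the glucose transporter GLUT1, changed by -2.68. Cytoskeleton and adhesion genes fell in 32 of 36 cases, with a median of -0.63 and a range of -2.06 to 0.036. That median lay above the all-gene median, except after quantile normalisation and with a constant of 10. The members named here lost more than the median gene: ACTB, β-actin, changed by -0.95, ACTG1, γ-actin, by -1.73, and TUBB4B, a β-tubulin, by -2.06. EEF1A1, the elongation factor, changed by -0.67.

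Of the protein-coding lists, cytosolic ribosomal proteins and the respiratory chain had the medians nearest 0. Of 77 cytosolic ribosomal protein genes, 40 fell over 8 h and none rose, with a median of -0.21 and a range of -0.50 to 0.14. From 0 to 4 h none fell (63.8% of all genes did) and 2 rose (0.885% of all genes), with a median of 0.07. From 4 to 8 h 61 fell (79.2% of all genes did), with a median of -0.27. On library totals 0 of 77 fell over 8 h and 74 rose, while 6579 of all 12547 genes fell and 1562 rose. Only their place above the all-gene median therefore held under all 4 scales. The margin was 0.61 log2 on the spike-in scale but only 0.017 after quantile normalisation. There 6 of 77 fell and 32 rose, while 3743 of all 12547 genes fell and 4531 rose. RPLP1, a stalk protein, had 10114 and 9932 at 0 h, 11840.5 and 10380.3 at 4 h, and 8976 and 8804 at 8 h, and its 8 h change of -0.17 did not pass. RPL7A had the largest fall of the group, -0.50, and RPL34, at 703 and 696 and then 706 and 679, did not change detectably (-0.01, SE 0.08).

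Nuclear-encoded respiratory chain genes fell in 45 of 76 cases with a median of -0.27, and mitochondrial ribosomal proteins in 69 of 76 with a median of -0.49. Both groups stayed above the all-gene median under all 4 scales. On library totals 52 and 30 of their genes, respectively, rose, against 1562 of all 12547 genes. SDHA, the flavoprotein of succinate dehydrogenase, fell furthest of the respiratory genes, from 124 and 119 to 61.3 and 59.4, followed by NDUFV2 of complex I at -0.93. MRPL49 and MRPL44, of the mitochondrial large subunit, changed by -1.25 and -1.20. Of the remaining lists, circadian clock genes fell in 14 of 15 cases (median -1.10), core and linker histones in 21 of 26 (-0.99), with 1 that rose, lysosomal and glycosylation enzymes in 40 of 41 (-0.62), aminoacyl-tRNA synthetases in 20 of 20 (-0.54), snoRNA host genes in 17 of 21 (-0.51), and metallothioneins with zinc export in 3 of 4 (-0.43). The libraries were poly(A)-selected, and what this keeps of histone mRNAs was not tested. SR proteins and hnRNPs, the splicing regulators, fell in 42 of 43 cases, with a median of -0.80.

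Transcripts that rose were few, and 34 of the 53 (64.2%) were protein-coding, against 92.3% of all genes. PABPC1L, a poly(A)-binding protein (chromosome 20, 44910062 to 44959035, plus strand), had 13.5 and 13.6 at 0 h, 20.5 and 17.5 at 4 h, and 23.1 and 22.3 at 8 h (0.70, SE 0.08, limma adjusted p = 7.83e-08). It rose in both intervals, the second rise (0.25) being lost without the second 4 h or the first 8 h library. ATHL1, a glucosidase of collagen sugars, KLHL17, an actin-binding Kelch protein, KIFC2, a kinesin, and AHSA2, related to an HSP90 cochaperone, changed by 0.77, 0.56, 0.49 and 0.48. Of genes with a 0 h mean under 5, 24 of 1458 rose, against 3 of 1680 with a mean over 100.

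Non-coding RNAs diverged. Of 17 measured long non-coding RNAs, 12 fell and 2 rose, against 90.5% and 0.422% of all genes. NEAT1, the scaffold of nuclear paraspeckles (chromosome 11, 65422774 to 65445540, plus strand), had 76.9 and 75.02 at 0 h, 71.7 and 69.0 at 4 h, and 98.4 and 97.9 at 8 h, a net rise of 0.37 (SE 0.06) that came between 4 and 8 h (0.47, adjusted p = 9.68e-07). MALAT1, a nuclear speckle RNA, had 288 and 265, then 279.9 and 288, then 326 and 329. Its change of 0.25 (adjusted p = 0.0419) was lost when the second 0 h library or either 8 h library was left out, with values from 0.19 to 0.25 in those fits. NORAD, a cytoplasmic long non-coding RNA, had 219.8 and 210.0 at 0 h, 47.5 and 47.7 at 4 h, and 38.7 and 39.9 at 8 h. MIR22HG, the host of a microRNA, changed by -2.46.

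Of 20 short nuclear and nucleolar RNA rows 6 rose and 2 fell, against 0.422% and 90.5% of all genes. These RNAs mostly lack a poly(A) tail, and what poly(A) selection keeps of them was not tested. SCARNA16 had 4.54 and 7.06 at 0 h, 34.7 and 15.4 at 4 h, and 38.6 and 25.5 at 8 h (2.28, SE 0.31), and RN7SK, which holds the elongation factor P-TEFb inactive, had 124 and 63.5, then 133 and 99.6, then 187 and 186 (1.06, SE 0.22). Among 19 ribosomal RNA rows, most of which hold identical values and so are not separate measurements, 1 rose and 1 fell, with a wide spread between the 0 h libraries. RNA18S5 fell from 72326 and 27727 to 10777 and 9612, and RNA5-8S5 rose from 1847 and 1214 to 6668 and 6134.

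The 4 h libraries show whether loss was even. If decay were exponential, the log2 change would be about the same in both intervals, and the curve (the second change minus the first) would be near 0, apart from the constant of 1, which matters at low signals. The curve had a median of -0.05 over all genes. It passed in the lower direction, more loss after 4 h, for 462 genes (3.68%) and in the higher direction, more loss before 4 h, for 560 (4.46%). The split of lower and higher was 1537 and 935 with sgQKI+EV fitted alone, 511 and 955 with a constant of 10, 214 and 505 without the mean-variance trend, and 865 and 1098 after quantile normalisation. Separately, 6841 genes fell in both intervals, 3036 in the second interval alone and 1157 in the first alone, where alone means that the other interval did not pass. The median half-life was 9.77 h in the first interval and 8.03 h in the second.

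Early loss that then slowed was seen in several, but not all, of the fastest-lost genes. CYR61 had a curve of 4.88 (SE 0.16, limma adjusted p = 4.65e-15) and half-lives of 0.741 h and 11.7 h in the 2 intervals. DDIT4 had a curve of 4.13, ID1 of 3.58, NFKBIA of 3.54 and EGR1 of 3.31. NFKBIA and EGR1 were close to the lowest measured values by 4 h. NORAD was well above them, with a curve of 1.88 and 47.5 and 47.7 left at 4 h. TLN1, the integrin-linked protein talin, had 169.9 and 169 at 0 h, 74.9 and 65.1 at 4 h, and 74.2 and 70.6 at 8 h. CLK1, a kinase of splicing factors, had a curve of 1.45. Of the 560 genes, 427 kept a 4 h mean of at least 5 and 108 of at least 20, and 170 showed no fall that passed from 4 to 8 h. In the immediate-early list 13 of 22 genes were in this class, and of the ATF4 targets 6 of 27, against 4.46% of all genes.

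Late loss was seen in LDHA, SLC2A1, TUBB4B and ANKRD1, with curves of -0.69, -0.68, -0.66 and -0.70, and in PLK1, the polo-like kinase, with -0.62. DUS3L, a tRNA dihydrouridine synthase, had 18.8 and 17.4 at 0 h, 23.2 and 22.9 at 4 h, and 13.3 and 12.5 at 8 h, a rise of 0.33 by 4 h that passed and then a fall. Its rise was lost without either 0 h or either 4 h library. PRR7, a membrane adaptor, had 27.0 and 24.4, then 30.8 and 23.3, then 14.3 and 14.3. LBH, a transcription cofactor, and CTGF lost more in the second interval by value (curves of -0.52 and -0.38), but neither passed. Of the 462 genes, 397 had no fall that passed by 4 h and 45 had risen. This class depends on single libraries. Without either 0 h library 147 and 153 genes passed in the lower direction, and without either 8 h library 183 and 95. Without the first 4 h library, whose total outside ribosomal RNA was 947630 against 853271 in the second, 3 genes passed in the lower direction and 350 in the higher, and the curve calls of LDHA, SLC2A1, TUBB4B, ANKRD1, PLK1, DUS3L, PRR7 and METTL1 (-0.80) were lost, with the sign kept. That of METTL1 was also lost without either 0 h library, the second 4 h library or the second 8 h library. The call of PRR7 was also lost without the second 0 h library or either 8 h library, and that of PLK1 without the second 8 h library. Without the second 4 h library the split was 997 and 234, and on library totals it was 193 and 1753, with a median curve of 0.12.

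**Figure D3:**
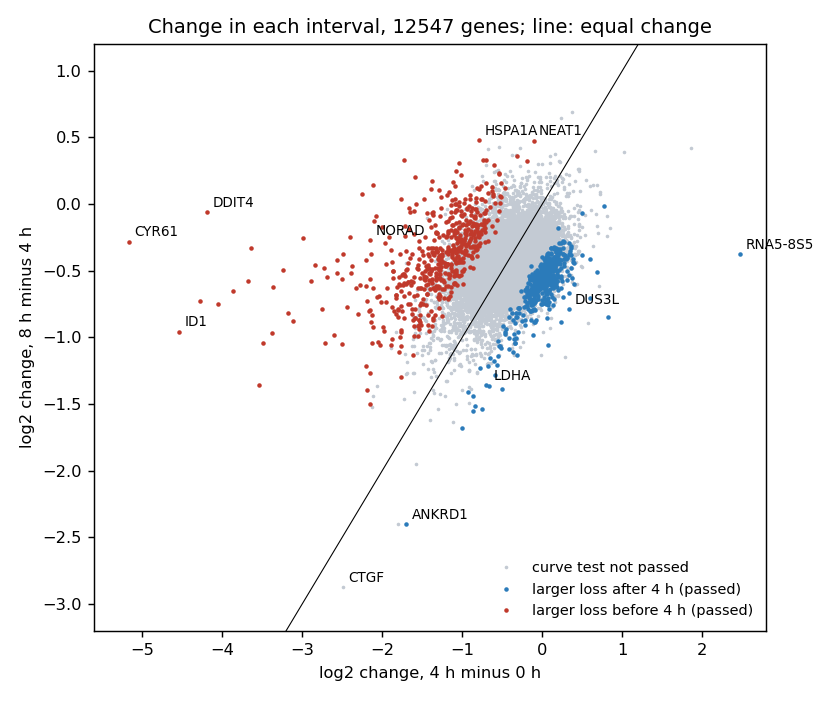
Log2 change of signal + 1 from 4 to 8 h (vertical axis) against that from 0 to 4 h (horizontal axis) for 12547 genes in sgQKI+EV, with the 560 genes that lost more before 4 h in red, the 462 that lost more after 4 h in blue and the rest in grey. CYR61 and DDIT4 lie far left near no further change, and CTGF and ANKRD1 lie low near the line of equal change.

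**Figure D4:**
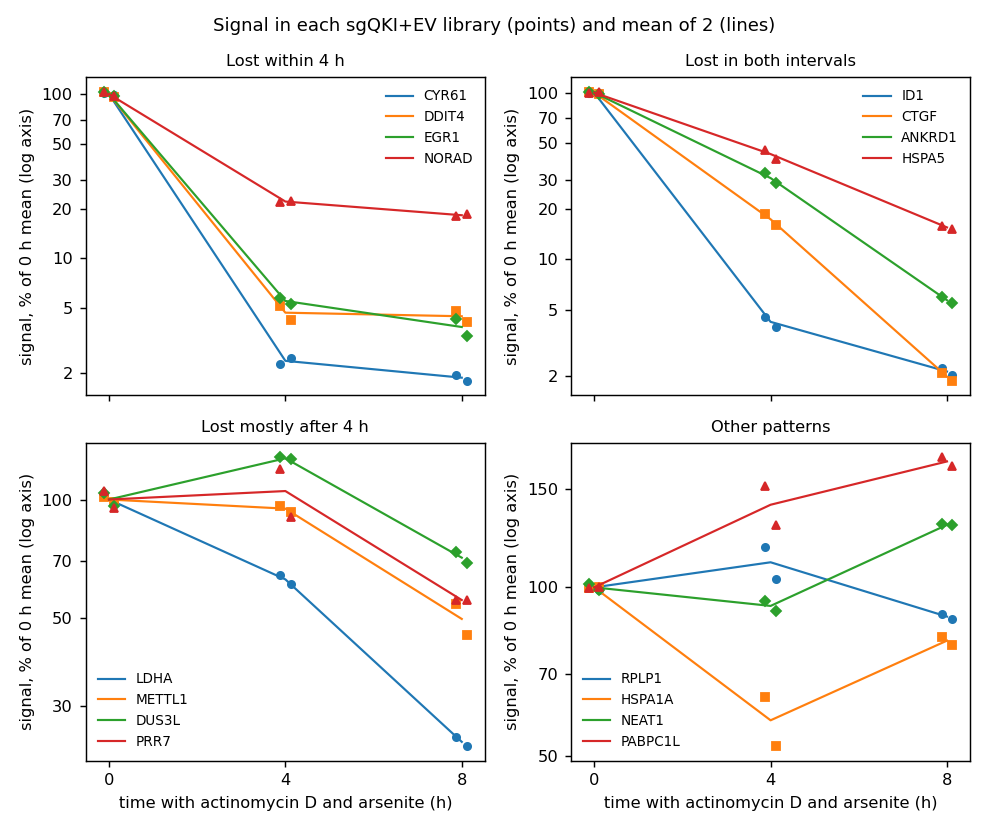
Signal as a percentage of the 0 h mean (vertical log axis, which differs between panels) against time in hours (horizontal axis) for 16 genes, with points for single libraries and lines for the mean of 2. CYR61 falls to 2.37% by 4 h, METTL1 holds 94.8% at 4 h and 49.9% at 8 h, and HSPA1A falls to 57.9% and returns to 80.4%.

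A few genes moved both ways. 9 genes fell by 4 h and rose from 4 to 8 h, of which HSPA1A is described above, and 61 rose by 4 h and fell from 4 to 8 h. The counts of risers move with single libraries. The 53 risers at 8 h became 29 without the second 0 h library and 33 without the first 8 h library, and the 111 at 4 h became 30 without the first 4 h library, 44 without the second 0 h library and 176 without the second 4 h library. The 18 from 4 to 8 h became 8 without the first 8 h library and 10 without the second 4 h library.

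Transcript structure was compared with loss for 8894 protein-coding genes, with 1 GENCODE 29 transcript each and a 3′ UTR of at least 30 bases. Longer 3′ UTRs went with larger loss, mostly in the first 4 h. In genes with a 3′ UTR of 30 to 500 bases the median change was -0.14 by 4 h and -0.57 by 8 h, and 39.4% had fallen by 4 h. With 501 to 1000 bases the medians were -0.32 and -0.78, with 1001 to 2000 bases -0.47 and -0.93, and over 2000 bases -0.63 and -1.14, when 91.7% had fallen by 4 h. From 4 to 8 h the medians differed little between the classes, from -0.43 to -0.51. The share that lost more after 4 h went from 10.1% in the shortest class to 0.706% in the longest, and the share that lost more before 4 h from 1.87% to 8.48%.

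**Figure D5:**
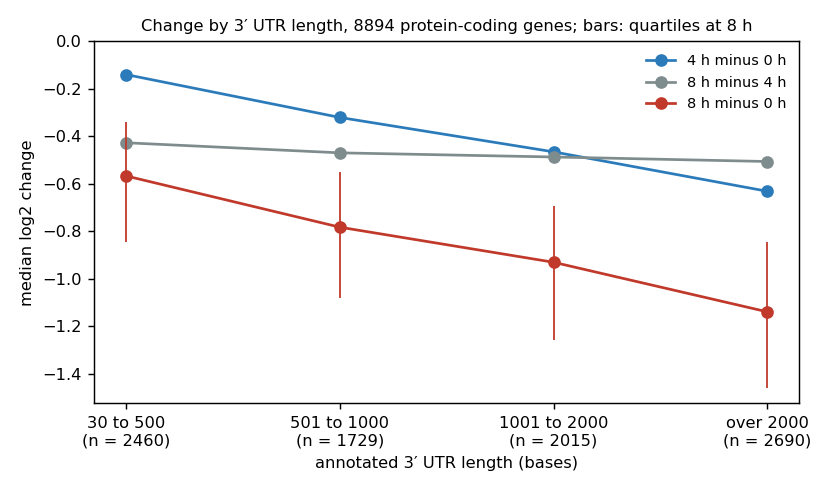
Median log2 change of signal + 1 (vertical axis) by annotated 3′ UTR length in bases (horizontal axis) for 8894 protein-coding genes in sgQKI+EV, with bars for the quartiles of the 8 h change. The 4 h medians go from -0.14 to -0.63 across the classes, while those from 4 to 8 h stay between -0.43 and -0.51.

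Spearman's rho between 3′ UTR length and the change was -0.46 over 8 h, -0.51 to 4 h and -0.17 from 4 to 8 h, across genes, which are not independent and share libraries. Coding length gave -0.36 over 8 h, and the number of exon junctions per kb of coding sequence 0.37. Genes with up to 2 junctions per kb had a median 8 h change of -1.38, and those with over 8 had -0.68. The 167 genes with none had -1.27. These features are related to each other and to the signal at 0 h, and their separate parts were not tested.

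AU-rich elements are 3′ UTR sequences that recruit decay factors such as the TTP family, and a strict form is a nonamer, TTATTTATT when U is written as T. It was searched on the transcript strand and was present in 721 of the 8894 3′ UTRs (8.11%). It was in 10.4% of the 48 genes with an 8 h change below -3, 13.4% from -3 to -2 and 13.9% from -2 to -1.5. It was in 3.69% of those from -0.5 to 0. Only 5 genes below -3 held it, too few to tell whether the share keeps rising with loss. The median 3′ UTR was 1247.5 bases below -3, 1831 from -3 to -2 and 2153 from -2 to -1.5. Long UTRs also hold more of any motif. By length class, shortest first, genes with the nonamer had medians of -0.57, -0.84, -1.02 and -1.23. Those without it had -0.57, -0.78, -0.92 and -1.13. The shortest class held only 39 genes with the nonamer. The QKI core, ACTAA with U as T, searched the same way, was in 53.9% of UTRs. From the shortest to the longest length class, genes with it had medians of -0.66, -0.82, -0.97 and -1.14, and those without it -0.55, -0.75, -0.88 and -1.09. Over the 8894 genes, Spearman's rho with the 8 h change was -0.23 for QKI cores per kb. It was -0.25 for the AU percentage of the 3′ UTR, and the separate parts were not tested. Of the 15 lowest genes named by the rule, IER5 and ANKRD1 held the nonamer. The 25-base sites below, from the GRCh38 transcripts, are from genes described above that fell at least 4-fold. They are shown to let the bases around the nonamer, in capitals, be compared.
IER5, chr1:181092445-181092469, plus strand: gtcttcctTTATTTATTtatttatt
ANKRD1, chr10:90912670-90912694, minus strand: tgaaactcTTATTTATTtttatgta
ARID5B, chr10:62096118-62096142, plus strand: ggactgacTTATTTATTtactagct
KLF5, chr13:73077179-73077203, plus strand: gtttatctTTATTTATTttgtggta
GDF15, chr19:18389056-18389080, plus strand: taagtctgTTATTTATTattaattt
PLK2, chr5:58454068-58454092, minus strand: taaactttTTATTTATTacagccca
SOX9, chr17:72125500-72125524, plus strand: tgctaaaaTTATTTATTttgtaagg
THBS1, chr15:39596504-39596528, plus strand: aatacagaTTATTTATTaactctgt

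The bases to the left of the nonamer differed between these genes. IER5 had 3 sites in a 3′ UTR of 3013 bases and ANKRD1 2 in 770 bases, while the other 6 genes had 1 each. The printed IER5 bases read the nonamer 3 times in overlap, and only the first copy is in capitals. The bases to its right therefore belong to the motif, and the 3 sites of IER5 may be 1 run. A match to these letters is a description and does not show that a factor binds there. The 3′ UTRs of ID1, CYR61, CTGF and NFKBIA, the 4 lowest genes, held no copy of the nonamer.

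The 8 h loss in sgQKI+EV was set against that in the other genotypes by an interaction test. Against sgNS+EV, 84 genes fell further in sgQKI+EV (0.669%) and 1, POP3, less far (0.00797%), and the median difference over all genes was -0.14. The split and median were 54 and 12 with -0.0056 after quantile normalisation, 52 and 2 with -0.054 on library totals, and 59 and 5 with -0.026 on totals without ribosomal RNA rows. POP3, named after its value was seen, has signals from 2.60 to 7.82 in sgQKI+EV. HSPA5 had the lowest adjusted p of the named genes, with 15.6% left at 8 h and a difference of -0.85 (SE 0.10, limma adjusted p = 0.000503), and AMOTL2 had -0.72. Both passed on all 4 scales and without each sgQKI+EV library in turn. ID3 (-0.87), PCNA, the replication clamp (-0.53), and the histone genes HIST1H4H (-0.95) and HIST2H2BE (-0.56) also fell further. What poly(A) selection keeps of histone mRNAs was not tested. Of 41 mitotic genes 12 fell further, with a median difference of -0.42. After quantile normalisation 7 of the 41 passed, on library totals 8, and on totals without ribosomal RNA rows 12. Those lower include PLK1, TOP2A, CCNA2 and CDK1, named after their values were seen, and the calls of CCNA2 and CDK1 were lost on the other 3 scales.

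The number of genes that differed from sgNS+EV depends on single libraries. It was 2 without the first 0 h library, 7 without the second, 10 without the first 8 h library and 2 without the second, and 193 without either 4 h library, which does not enter the difference and so acts only through the spread. Against QKI7-WT and QKI7-△KH no gene passed by limma (0.0% of those tested in each), although 23 lower and 2 higher passed against QKI7-△KH when these genotypes were fitted alone. At an unadjusted p under 0.05 there were 344 and 323 genes, and the median differences were -0.07 in both. The median SE of such a difference over all genes was 0.15, which limits what could be detected with 2 libraries a group.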

How the data were processed

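RNA was measured by poly(A)-selected stranded sequencing in 24 libraries, 2 for each of 12 groups. Reads were processed with STAR and RSEM against GRCh38, per the submitters' processing notes, with versions not given in the sources used here. The deposited values are a linear signal per gene. That the authors scaled it to ERCC spike-ins is read from the values: the ERCC rows sum to between 11484.8 and 11660.0 in the 6 libraries described. The 38 ERCC rows were left out, and 12547 rows remained, of which 38 repeat an earlier row exactly. With 2 libraries a group and no counts, precision rests on replicate spread.

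Values were taken as log2(signal + 1) and fitted with limma 3.58.1 (R 4.3.3), with a mean-variance trend, 12 group means and 12 residual degrees of freedom, so that all 24 libraries share the estimate of spread. P-values are two-sided and adjusted by Benjamini-Hochberg over 12547 rows, with a threshold of 0.05. The script was tested on simulated data. Half-lives come from group means without the constant. Symbols were matched to GENCODE 29 directly (11926) or by synonym (286), and 335 were not matched.

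The genes named are G3BP1, WDR4, METTL1 and QKI, the 15 lowest and 15 highest passing changes at 8 h and 6 per direction for other contrasts (mean of at least 10, no overlap), the 4 largest changes and the smallest in each list, and the 8 highest signals. Some genes that this rule selects are not reported here. The gene lists and comparisons were chosen with earlier results of these data known. Alternatives were another scale (quantile normalisation or library totals), a constant of 0.1 or 10, a mean of at least 10, each comparison's genotypes alone, the replicate number as a block, no trend, a fold limit, and each sgQKI+EV library left out. Totals without ribosomal RNA rows were added after seeing the data.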

Additional observations from a re-analysis of the deposited data

Results flagged for a closer look

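The 8 h change differed between sgQKI+EV and sgNS+EV, by the interaction test of the difference itself (limma, adjusted p under 0.05), for 85 genes. Differences below are the 8 h log2 change in sgQKI+EV minus that in sgNS+EV, so a negative value is a larger loss in sgQKI+EV.

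Signalling and secreted factors included ID3 with -0.87, BMP4 with -0.74, AMOTL2 with -0.72, PIM3 with -0.66, BTG2 with -0.64, PLK2 with -0.62, ANKRD1 with -0.61 and THBS1 with -0.47. Stress and folding genes included HSPA5 with -0.85, DNAJB1 with -0.59 and TXNRD1 with -0.57, and the tubulin TUBB4B had -0.55. Cell cycle and histone genes included HIST1H4H with -0.95, HIST1H2BD with -0.62, HIST2H2BE with -0.56, PLK1 with -0.54, PCNA with -0.53, TOP2A with -0.50, CCNA2 with -0.49 and CDK1 with -0.40. For the histone genes, what poly(A) selection keeps was not tested. POP3, with 1.57, was the gene that lost less. HSPA5 and AMOTL2 passed in all 6 fits that left out 1 sgQKI+EV library, BMP4, PLK2 and TXNRD1 in 4, ANKRD1 and HIST2H2BE in 3, and the others named here in 2, the fits without either 4 h library. Leaving out a 0 h or 8 h library ended those calls. The fits without a 4 h library leave the difference itself unchanged and act only through the spread. The sgNS+EV libraries, the other side of the difference, were not left out in turn.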

How the results depend on the processing

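The direction of change over 8 h depends on the spike-in scale, and the counts of risers, of uneven loss and of differences from sgNS+EV depend on single libraries. Depth is unknown, so what it limits cannot be given.

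Quantile normalisation gave 3743 genes lower and 4531 higher at 8 h, 3182 and 3625 at 4 h, 1692 and 1378 from 4 to 8 h, and 1963 uneven curves. Library totals gave 6579 and 1562 at 8 h, 1196 higher at 4 h, 2339 and 546 from 4 to 8 h, 1946 curves and 54 differences from sgNS+EV. Totals without ribosomal RNA rows gave 6975 and 1390 at 8 h, 1026 higher at 4 h, 2394 and 596 from 4 to 8 h, and 2257 curves. A constant of 10 gave 24 differences from sgNS+EV and no trend gave 3. Genes with a mean of at least 10 gave 22 risers at 8 h and 180 differences. With the genotypes compared alone there were 253 risers at 4 h, 30 from 4 to 8 h, 2472 curves, 274 differences from sgNS+EV and 25 from QKI7-△KH. The fold limit left 4457 lower and 7 higher at 8 h, 1004 and 2 at 4 h, 213 and 2 from 4 to 8 h, and 22 differences.

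Leaving out 1 library gave 10566 to 11360 lower and 29 to 62 higher at 8 h, 6320 to 8151 and 30 to 176 at 4 h, 7628 to 9927 and 8 to 23 from 4 to 8 h, 353 to 1231 curves and 2 to 193 differences from sgNS+EV, with 0 from either QKI7 group.

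The replicate numbers were checked as a pairing: deviations of same-numbered libraries correlated at -0.038, 0.132 and 0.157. These values cannot show whether same-numbered libraries shared a culture or a batch, which the sources used here do not give. With the replicate block 1100 curves and 109 differences from sgNS+EV passed, and the 8 h call of none of the 109 named genes changed.

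After quantile normalisation the 8 h change reversed to 0.071 for METTL1, 0.049 for WDR4, 0.16 for GAPDH, 0.29 for HSPA1A, 0.57 for DUS3L, 0.19 for PRR7, 0.86 for POP3 and 0.38 for RPL34. On library totals it reversed to 0.21 for GAPDH, 0.45 for RPLP1, 0.12 for RPL7A, 0.30 for HSPA1A, 0.12 for DUS3L and 0.60 for RPL34.

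List medians minus the all-gene median crossed 0 as follows. After quantile normalisation they were -0.039 for the unfolded protein response, 0.046 for interferon-stimulated genes, -0.0063 for cholesterol biosynthesis, -0.16 for translation factors, -0.023 for the proteasome, -0.18 for glycolysis, -0.20 for the cytoskeleton, 0.065 for the decay machinery and -0.17 for SR proteins and hnRNPs. DNA replication and the decay machinery were at 0.021 and 0.0062 on library totals, 0.018 and 0.0054 on totals without ribosomal RNA rows, and 0.035 and 0.0096 with a constant of 0.1. With a constant of 10 the values were -0.016 for the unfolded protein response, -0.0034 for NRF2 targets, 0.059 for interferon-stimulated genes, -0.098 for cholesterol biosynthesis, -0.096 for translation factors, -0.048 for the proteasome, -0.059 for glycolysis, -0.11 for the cytoskeleton, -0.033 for lysosomal enzymes, -0.20 for SR proteins and hnRNPs, 0.026 for ZNF genes and -0.10 for ribosomal RNA rows. The cause of these changes was not tested.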
